A study of Trichoderma guizhouense with 100 samples.

Results

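The course of carbon starvation (CS) in the ∆Tgxyr1 mutant of Trichoderma guizhouense NJAU4742, a filamentous fungus that lives on plant residues, was followed in 12 of the 100 RNA-seq libraries of the study. They are the libraries whose labels name the strain ∆Tgxyr1 and either 0 h or a culture without a carbon source at 4 h, 24 h or 72 h, with 3 libraries at each time. The remaining libraries of the study are WT NJAU4742, ∆Tgxyr1 on xylan or cellulose, and mutants of 2 other regulators. The mycelium was grown on glucose, washed and moved to minimal medium with no carbon source, so that the 0 h libraries hold cells from glucose. The mutant carries a hygromycin resistance cassette in place of Tgxyr1, which all 12 libraries share, and the sources used here do not say how many independent transformants were used. Tgxyr1 encodes the counterpart of Xyr1, the activator of cellulase and xylanase genes in Trichoderma reesei. The question was which genes change early, which in the middle and which late when this strain runs out of carbon. Where the course was compared with that of the wild type (WT), the 10 WT libraries at 0 h and under CS were used, with 3 at 0 h and 24 h and 2 at 4 h and 72 h.

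When a filamentous fungus runs out of sugar, genes kept silent by glucose are released from carbon catabolite repression. The cells then live on their own reserves, fats, proteins and walls: secreted proteases and wall hydrolases break down dead compartments of the colony, peptides and amino acids are taken up and burned, and gluconeogenesis, led by phosphoenolpyruvate carboxykinase and fed by the glyoxylate cycle, makes sugar phosphates from what fat and protein leave. Growth functions such as ribosome assembly are usually turned down, and the colony may turn to conidia, its asexual spores.

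The values are RPKM (reads scaled to transcript length and to the mapped reads of a library), made by the authors, and the gene IDs (OPB numbers) and functions are those of the deposited annotation, where many names were carried over from other fungi. TgXyr1 (OPB38038) was listed at 0 in 8 of the 12 ∆Tgxyr1 libraries and reached at most 0.168 RPKM in the others, against 1.29 to 25.5 RPKM in the 10 WT libraries. Summed over genes, the RPKM of a library lay between 901197 and 959825 at 0 h, between 1748599 and 1827618 at 4 h, between 2292492 and 3010430 at 24 h and between 1014018 and 1047071 at 72 h. The 10 most abundant genes took 16.97% of that sum at 0 h, 24.1% at 4 h, 31.4% at 24 h and 27.1% at 72 h. Factors that would bring the 12 libraries to a common median ratio lay between 0.951 and 1.07. The number of reads behind a value is unknown, so precision rests on the spread between libraries. At 24 h, 5 genes were listed at 0 in all 3 libraries while averaging above 10 RPKM at each of the other times. These include OPB40085, annotated as a heat shock factor binding protein, so a value of 0 may be a failed estimate, and the size of a log2 difference depends on the pseudocount where a group is listed at 0. Each library correlated best with the libraries of its own time.

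Differences were tested on log2(RPKM + 1), which understates the change of genes with low values, over the 10026 of 11244 genes above 1 RPKM in at least 2 libraries of the study. A gene was called at an adjusted p of at most 0.01 (limma, Benjamini-Hochberg over all genes tested), a log2 difference of at least 2 in either direction and, in the higher of the groups compared, a mean above 2 RPKM. All values below given as a difference are log2 differences from 0 h unless another reference is named. The p-values rest on the spread between replicate libraries pooled over the 34 groups of all 100 libraries of the study, not on the 12 libraries alone. "Rose" and "fell" below are used for called genes.

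At 4 h, 699 genes were called higher (6.97% of those tested) and 312 lower (3.11%) than at 0 h. At 24 h, 1036 were higher (10.3%) and 554 lower (5.53%), and at 72 h, 786 were higher (7.84%) and 752 lower (7.5%). These shares are the background for the counts given below for groups of genes. The balance moved over time: rises outnumbered falls at 4 h and 24 h, and the counts were nearly equal at 72 h. Over all genes tested, the median difference lay between -0.04 and -0.02 at the 3 times. The 3 comparisons share the same 0 h libraries.

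Sorted by the first time at which a gene was called, 689 genes rose early (at 4 h), 541 in the middle (first at 24 h) and 242 late (first at 72 h). On the other side 312 fell early, 323 in the middle and 317 late, while 12 were called in both directions and 7590 at no time. Of the 689 early rises, 492 were also called at 24 h and 294 at 72 h, and 180 were called at 4 h alone. Their median difference was 2.86 at 4 h, 2.97 at 24 h and 1.60 at 72 h. Of the 312 early falls, 231 were also called at 24 h and 218 at 72 h, with medians of -2.57, -2.82 and -2.75. Genes that rose in the middle had medians of 1.17, 2.56 and 1.81, and genes that rose late of 0.40, 1.41 and 2.43. The classes therefore differ by degree: many late genes had already moved in the same direction at 24 h without reaching the limit. How these classes made up the calls at each time is shown in the plot of genes called by time.

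**Figure D1:**
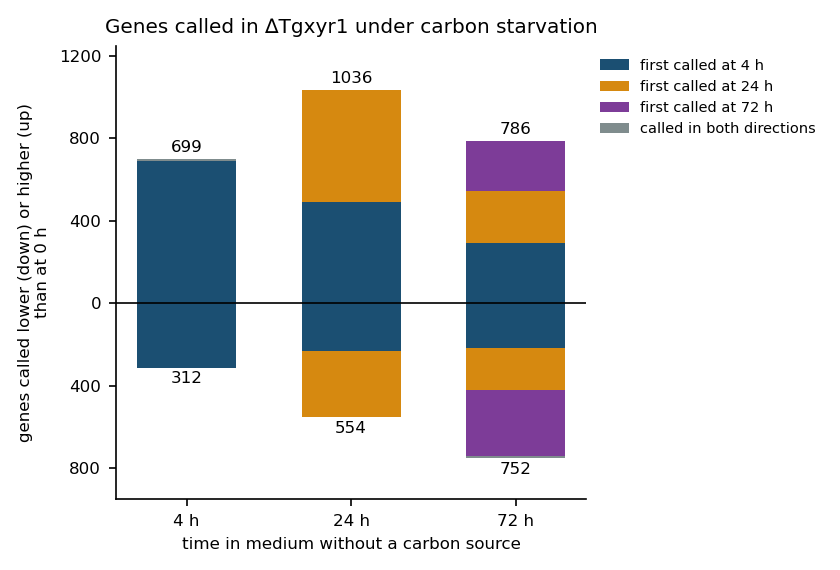
Number of genes called higher (bars upward) or lower (bars downward) than at 0 h in ∆Tgxyr1 at 4 h, 24 h and 72 h of CS, coloured by the time of the first call. Of the 786 genes higher at 72 h, 294 were first called at 4 h, 250 at 24 h and 242 at 72 h.

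The steps between successive times share no 0 h library and show where the course turned. From 4 h to 24 h, 242 genes were higher at 24 h (2.41%) and 255 lower (2.54%). Between 24 h and 72 h the step was mostly downward, with 69 genes higher (0.688%) and 576 lower (5.75%) at 72 h than at 24 h. Of the 689 early rises, 191 were lower at 72 h than at 24 h and 3 higher. Of the 541 middle rises, 108 were lower and 2 higher in that step. Some early rises had turned back before that step, such as the trypsin-like protease OPB36132, which fell between 4 h and 24 h.

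Secreted and vacuolar proteases gave some of the largest early rises. Of 132 tested, 24 rose at 4 h, where 6.97% of all genes did, and 6 fell, but their median difference was only 0.09, since most did not change. OPB36132, a trypsin-like serine protease, had 0.646, 2.60 and 1.61 RPKM at 0 h, 6206, 6541 and 6317 RPKM at 4 h, 32.8, 15.8 and 51.7 RPKM at 24 h and 33.98, 19.6 and 20.03 RPKM at 72 h. It stood at the floor on glucose, reached a mean of 6355 RPKM at 4 h and had dropped most of the way back by 24 h. The difference at 4 h was 11.32 (SE 0.56, adjusted p = 1.1e-27), and that of 24 h from 4 h was -7.68. A second trypsin-like protease, OPB42272, went through the same pulse, with 789, 757 and 725 RPKM at 4 h, against 0.529, 0.590 and 0.137 RPKM at 0 h, and 1.99, 0.310 and 0.338 RPKM at 72 h. OPB44618, an aspartic endopeptidase, had 955, 904 and 957 RPKM at 4 h, against 11.1, 16.6 and 15.97 RPKM at 0 h. By 72 h it stood at 3.29, 3.06 and 2.38 RPKM, below all 0 h libraries, although this difference of -1.98 was short of the limit. The alkaline proteinase prb1 (OPB37691), a subtilisin known from mycoparasitic Trichoderma, rose by 9.15 at 4 h and was still 5.996 higher at 72 h. Between 4 h and 24 h, 17 of the 132 proteases fell and 3 rose. A later protease was OPB36777, a dipeptidyl peptidase that cuts pairs of residues from peptide ends, with differences of 0.15, 1.78 and 3.93 at 4 h, 24 h and 72 h. The metallopeptidase MepB (OPB47030) went the other way, with differences of -4.74, -6.96 and -6.86.

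Transporters of peptides and amino acids moved in both directions, with a few large early rises that lasted. Of 59 transporters for amino acids, peptides and other nitrogen compounds, 13 rose and 5 fell at 4 h, and 10 rose and 9 fell at 72 h. Over all genes, 6.97% rose and 3.11% fell at 4 h, and 7.84% rose and 7.5% fell at 72 h. The oligopeptide transporter OPB40340, which imports short peptides, had 6.68, 1.65 and 1.46 RPKM at 0 h, 1295, 1458 and 1316 RPKM at 4 h, 2660.2, 2733 and 2386 RPKM at 24 h and 1393, 1733 and 2437 RPKM at 72 h. All 9 CS libraries lay far above the 0 h libraries. Unlike the trypsin-like proteases, this gene kept its level to 72 h, with a difference there of 8.94 (SE 0.58, adjusted p = 1.9e-21). The amino acid permeases inda1 (OPB43544) and Dip5 (OPB43968) differed by 3.85, 5.12 and 5.12 and by 4.11, 5.02 and 6.80 at 4 h, 24 h and 72 h. Another amino acid permease, OPB44629, rose late, by 3.98 at 72 h. The transporter OPB45579 fell at all 3 times, with differences of -4.85, -8.50 and -8.33, and the amino acid transporter OPB42564 fell only at 72 h, to 7.07, 11.3 and 21.1 RPKM, against 142, 287 and 205 RPKM at 0 h.

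Genes of amino acid and nitrogen breakdown held more rises than falls at each time. Of 48 tested, 14 rose and 3 fell at 4 h, 12 rose and 4 fell at 24 h, and 13 rose and 6 fell at 72 h. Over all genes, 6.97%, 10.3% and 7.84% rose and 3.11%, 5.53% and 7.5% fell, so rises outnumbered falls there as well. Urate oxidase (OPB40975), which opens the purine ring of uric acid, rose by 4.64, 6.32 and 5.05. 4-hydroxyphenylpyruvate dioxygenase (OPB43190), a step of tyrosine breakdown, rose by 4.68, 6.28 and 4.72. Glutaminase A (OPB43941), which releases ammonium from glutamine, rose by 3.66, 4.23 and 5.59, and an indoleamine 2,3-dioxygenase-like gene (OPB44126), named for tryptophan breakdown, by 4.53, 3.78 and 5.69. Threonine/serine dehydratase OPB40059 fell, with differences of -2.33, -3.67 and -4.45. All of these were called at all 3 times.

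Rises among genes of fat breakdown were most frequent at 4 h. Of 55 genes of fatty acid oxidation and peroxisomes, 12 rose and 0 fell at 4 h, 3 rose and 0 fell at 24 h, and 3 rose and 2 fell at 72 h. Rises over all genes were 6.97%, 10.3% and 7.84% at these times, and falls 3.11%, 5.53% and 7.5%. The median difference of the list was 0.74, 0.19 and 0.31 at 4 h, 24 h and 72 h, against -0.02, -0.04 and -0.04 over all genes. Acyl-CoA dehydrogenase OPB36759, which takes the first oxidation step of a fatty acid, had 14.7, 14.1 and 13.8 RPKM at 0 h, 257, 295 and 236 RPKM at 4 h, 119.8, 142 and 118 RPKM at 24 h and 131, 129.7 and 140.01 RPKM at 72 h. Its level was thus highest at 4 h, and the 24 h and 72 h libraries overlapped. Long-chain fatty acid-CoA ligase 2 (OPB39728), which activates fatty acids, rose by 3.81 at 4 h, with 1.86 and 1.32 later, under the limit. A carnitine acyltransferase (OPB39844), which carries acyl groups between compartments, rose in the middle, by 3.41 at 24 h.

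The glyoxylate cycle and gluconeogenesis rose early. Of 6 genes tested of 7 measured, none fell, and 5 rose at 4 h, 6 at 24 h and 3 at 72 h. Phosphoenolpyruvate carboxykinase (OPB36548), which commits carbon to gluconeogenesis, had 162, 107 and 161 RPKM at 0 h, 9226, 6999 and 7206 RPKM at 4 h, 28873, 34385 and 28532 RPKM at 24 h and 28062, 29124 and 30685 RPKM at 72 h. The libraries at 24 h and 72 h overlapped, and those at 4 h lay between them and 0 h. The difference was 5.77 (SE 0.50, adjusted p = 1.1e-15) at 4 h and 7.69 (SE 0.50, adjusted p = 2.1e-21) at 72 h, when the gene gave 2.84% of the RPKM sum. Phosphoenolpyruvate synthase (OPB42829), which makes the same product directly from pyruvate, had 10.1, 49.01 and 25.3 RPKM at 0 h, 776, 741 and 723 RPKM at 4 h, 2893, 4485 and 2900.4 RPKM at 24 h and 1361, 1374 and 1425 RPKM at 72 h. Isocitrate lyase (OPB39512) and malate synthase (OPB36290), the pair of enzymes that define the glyoxylate cycle, turned back earlier. Isocitrate lyase had 183, 151 and 214 RPKM at 0 h, 959, 963 and 884 RPKM at 4 h, 818, 890.1 and 785 RPKM at 24 h and 243, 324 and 423 RPKM at 72 h. Malate synthase had differences of 2.62, 2.87 and 1.30, so that neither was called at 72 h. With quantile scaling isocitrate lyase was not called at 4 h (1.85) or 24 h (1.37). Acetyl-CoA synthetase (OPB42464), which activates acetate, rose by 2.62 at 4 h and 4.40 at 24 h, with 1.98 at 72 h. The acetate-CoA ligase OPB40264 passed the limit from 24 h on, with 1.44, 2.84 and 2.25, and its 72 h value without 0 h replicate 2 was 1.96, under the limit.

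Glycolysis changed sign within the list. At 4 h, 8 of 20 genes rose and none fell, and at 72 h 3 had risen and 4 fallen, with medians of 1.17, 0.47 and -0.37. Several steps of glycolysis also run backwards in gluconeogenesis. Fructose-bisphosphate aldolase (OPB40445) rose by 2.36, 3.10 and 2.31 and phosphoglycerate mutase (OPB43844) by 2.22, 2.85 and 2.27, and both work in either direction. The value of aldolase at 4 h was 1.71 with quantile scaling, under the limit. Pyruvate decarboxylase (OPB45520), which makes acetaldehyde from pyruvate, gave the largest rise of the list, with 1.17, 5.10 and 4.01 RPKM at 0 h, 387, 372 and 378 RPKM at 4 h, 1357, 2124 and 1480.1 RPKM at 24 h and 925, 1002 and 1118 RPKM at 72 h. Its substrate is the end product of glycolysis, so the list reaches past glycolysis itself. Another pyruvate decarboxylase in the list (OPB36936) rose at 4 h and 24 h, but not with quantile scaling (1.42 and 1.065). Glyceraldehyde-3-phosphate dehydrogenase 1 (OPB42895) had 6877, 5093 and 4240.4 RPKM at 0 h, 3772, 3299 and 3760.3 RPKM at 4 h, 7295, 8273 and 6255 RPKM at 24 h and 879, 683 and 917 RPKM at 72 h. It was high up to 24 h and below all earlier libraries at 72 h, but the difference of -2.69 (SE 0.87, adjusted p = 0.0065) lost its call when any 1 of its 6 libraries was left out, with adjusted p between 0.0115 and 0.0265. Enolase (OPB39612), chosen after its values were seen, behaved alike, with 1181, 617 and 637 RPKM at 72 h, against 4043, 6117 and 5853 RPKM at 0 h, a difference of -2.76 (SE 0.55, adjusted p = 1.6e-05). Glucokinase (OPB41622), which traps glucose as its phosphate, was called in both directions: it had 261, 226 and 219 RPKM at 0 h, 1117, 1627 and 1103 RPKM at 4 h, 215, 314 and 265 RPKM at 24 h and 48.5, 44.7 and 57.4 RPKM at 72 h.

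In the TCA cycle, which burns acetyl-CoA in mitochondria, 2 of 18 genes rose at 4 h, 4 at 24 h and 3 at 72 h, against 6.97%, 10.3% and 7.84% of all genes. A single gene fell, at 72 h. The iron-sulfur subunit of succinate dehydrogenase (OPB41448) rose by 2.28, 3.14 and 2.10, fumarate hydratase (OPB36008) by 2.62 and 2.14 at 24 h and 72 h, and aconitate hydratase (OPB37468) by 2.11 and 2.30. The call of succinate dehydrogenase at 72 h did not stand without 0 h replicate 2 (1.94). With quantile scaling, its value at 4 h (1.79) and those of fumarate hydratase (1.60) and aconitate hydratase (1.805) at 24 h were under the limit. The mitochondrial NADP-dependent isocitrate dehydrogenase (OPB43926) fell at 72 h, with -2.49. The genes of the respiratory chain and ATP synthase had medians of -0.21, -0.67 and -0.68, with 1 of 52 rising and 4 falling at 24 h, and those of mitochondrial ribosomes had -0.72, -0.78 and -0.40, with 0 of 26 called at 24 h or 72 h. Of 15 genes of glycogen, trehalose and starch, 3 rose at 4 h and 4 each at 24 h and 72 h. Glycogen phosphorylase (OPB38172), which releases glucose phosphate from stored glycogen, rose by 2.89 and 3.66, with 1.96 at 72 h. The trehalase OPB39098 rose by 3.25, 3.83 and 2.75 and the trehalase OPB41400 by 3.12 and 3.31 from 24 h on. Trehalases split trehalose, the storage sugar of spores and hyphae.

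**Figure D2:**
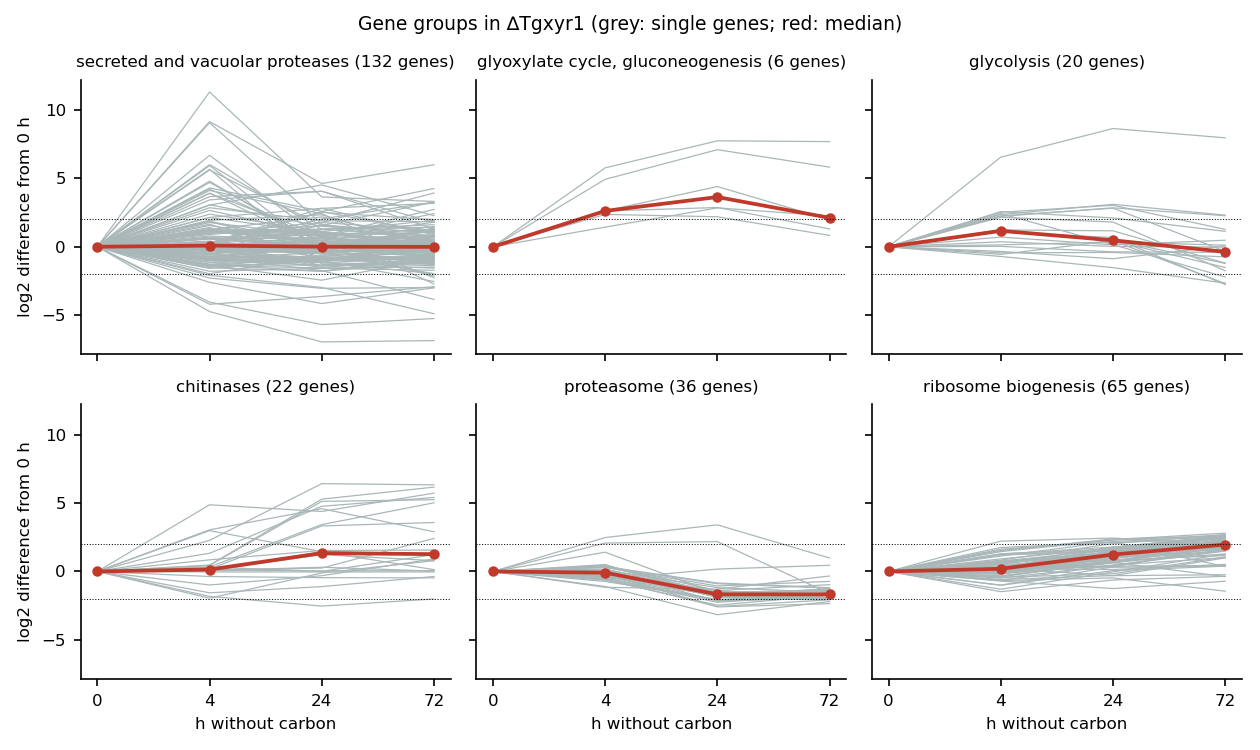
Log2 difference from 0 h in ∆Tgxyr1 at 4 h, 24 h and 72 h for the tested genes of 6 groups, times at equal distances, with single genes in grey and the median of the group in red, and dotted lines at the limits of 2 and -2. The median of ribosome biogenesis genes climbs to 1.97 at 72 h, that of proteasome genes falls to -1.67 at 24 h, and a few proteases peak at 4 h.

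Enzymes that cut the fungus' own wall included early and middle rises. Of 53 glucanases and mannosidases of the wall, 13 rose at 4 h, 18 at 24 h and 12 at 72 h, against 6.97%, 10.3% and 7.84% of all genes, and 9 had fallen at 72 h. By first call, 12 rose early, 7 in the middle and 1 late. The glucan endo-1,3(4)-β-glucosidase OPB40363 had 0.325, 0.606 and 0.448 RPKM at 0 h, 2.68, 2.54 and 1.33 RPKM at 4 h, 1538, 1818 and 1637 RPKM at 24 h and 734, 564 and 546 RPKM at 72 h. It was nearly unchanged at 4 h and differed by 10.16 (SE 0.74, adjusted p = 1.5e-19) at 24 h. The GH64 endo-1,3-β-glucanase OPB45961 had 6.48, 23.4 and 18.003 RPKM at 0 h, 29.7, 23.3 and 22.9 RPKM at 4 h, 1459, 1774 and 1354 RPKM at 24 h and 640.1, 600.03 and 594 RPKM at 72 h. Its 4 h libraries were close to those of 0 h, so that the rise falls between 4 h and 24 h, where the step was 5.86. The GH71 α-1,3-glucanase OPB40799, an enzyme against the α-glucan of the wall, was early, with differences of 8.67, 7.40 and 4.77. The GH76 mannanase OPB41755 rose steadily, by 4.82, 7.09 and 7.59. The endo-1,3-β-glucosidase BGN13.1 (OPB44331), known from Trichoderma harzianum, rose by 3.22, 6.81 and 5.69.

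Among chitinases, which cut the chitin of fungal walls, more genes were called at 24 h and 72 h than at 4 h. Of 22 tested, 4 rose at 4 h, 8 at 24 h and 9 at 72 h, against 6.97%, 10.3% and 7.84% of all genes, and 1 fell at 24 h and 72 h. The median difference was 0.14, 1.34 and 1.27 at these times. Between 4 h and 24 h, 6 of the 22 rose, where 2.41% of all genes did. CHI18-15 (OPB37700) rose by 5.29 at 24 h and 6.17 at 72 h, with 0.47 at 4 h. The 42 kDa endochitinase (OPB43505) had 0.326, 0.368 and 0.202 RPKM at 0 h, 1.93, 2.12 and 2.78 RPKM at 4 h, 34.8, 31.2 and 37.2 RPKM at 24 h and 102, 45.02 and 34.1 RPKM at 72 h. The GH20 exochitinase OPB39538, which releases single sugars from chitin ends, rose by 2.28, 6.42 and 6.33, the value at 4 h missing the limit without 0 h replicate 2 (adjusted p = 0.0115). Endo T (OPB46374), a GH18 enzyme that cuts N-glycans from proteins, rose by 4.87, 4.39 and 5.73. CHI18-7 (OPB36499) fell to 25.8, 18.4 and 22.6 RPKM at 24 h, against 119.9, 137 and 140.4 RPKM at 0 h. Its call at 72 h, -2.01, was lost without 0 h replicate 2 (-1.99) or 3 (-1.97) and without 72 h replicate 2 (-1.98) or 3 (-1.99).

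Against this, the enzymes for plant polysaccharides, which need Xyr1 in Trichoderma reesei, were mostly low throughout. Of 10 cellulases none was called at 4 h or 24 h, and at 72 h the β-glucosidase BGL3j (OPB39470) rose by 2.89. The exoglucanase cbh1 (OPB45635), which splits cellobiose from chain ends, stayed within a few RPKM, with 0.107, 0.0606 and 0.0552 RPKM at 0 h, 3.97, 1.49 and 3.15 RPKM at 4 h, 1.96, 0.200 and 0.679 RPKM at 24 h and 0.414, 0.449 and 6.96 RPKM at 72 h. Of 15 xylan-degrading genes, 3 rose at 4 h and 24 h and 1 at 72 h. Xylanase 2 (OPB43840) had 3.77, 1.64 and 2.55 RPKM at 0 h, 91.2, 57.95 and 76.8 RPKM at 4 h, 115, 136 and 102 RPKM at 24 h and 2.45, 2.67 and 11.8 RPKM at 72 h. It was high at 4 h and 24 h, and at 72 h 2 of 3 libraries were back at the 0 h level. The α-arabinofuranosidase OPB38106, which trims arabinose from xylan, kept its rise, with 3.66, 4.70 and 4.36. The acetyl xylan esterase OPB46214 rose by 3.68 at 24 h. Its call at 4 h, 3.16, was lost without 0 h replicate 3 (3.06, adjusted p = 0.0112) and without 4 h replicate 1 (3.06, adjusted p = 0.0113). Among 10 other hemicellulases the GH2 β-mannosidase OPB43763 stood out with 0.753, 1.71 and 1.07 RPKM at 0 h, 1115, 1015 and 1058 RPKM at 4 h, 1058, 1532 and 1054 RPKM at 24 h and 218, 142 and 141 RPKM at 72 h. Over all 168 glycoside hydrolases tested, 29 rose and 0 fell at 4 h, 41 rose and 6 fell at 24 h, and 36 rose and 13 fell at 72 h.

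The conidiation markers con-10 and MedA appeared or rose at 24 h. The mycelium could also have held conidia, for which con-10 and its partners are markers. Conidiation-specific protein 10 (OPB41395), named from Neurospora crassa, was listed at 0 in all libraries at 0 h and 4 h, had 651, 695 and 472 RPKM at 24 h and 45.7, 76.3 and 85.9 RPKM at 72 h. The developmental regulator MedA (OPB40389) had 5.77, 3.57 and 3.49 RPKM at 0 h, 8.25, 6.71 and 6.69 RPKM at 4 h, 125.4, 140.2 and 119 RPKM at 24 h and 69.998, 75.3 and 73.4 RPKM at 72 h, and thus moved at the same time. WetA (OPB37120), which acts late in spore maturation in Aspergillus, passed the limit at 24 h with 2.09 (1.94 with a pseudocount of 2 and 1.99 with quantile scaling, both under it), and AbaA (OPB44327), which acts before it, did not pass at any time, with 0.81, 1.41 and 1.79. Grg1 (OPB40051), a glucose-repressible gene, rose by 3.14, 4.70 and 4.53 and gave 5.07% of the RPKM sum at 72 h. In all, 2 of the 18 genes of conidiation and development rose at 4 h, 6 at 24 h and 4 at 72 h, against 6.97%, 10.3% and 7.84% of all genes, while 1 fell at 24 h and 72 h. The share of conidia in the cultures was not tested.

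**Figure D3:**
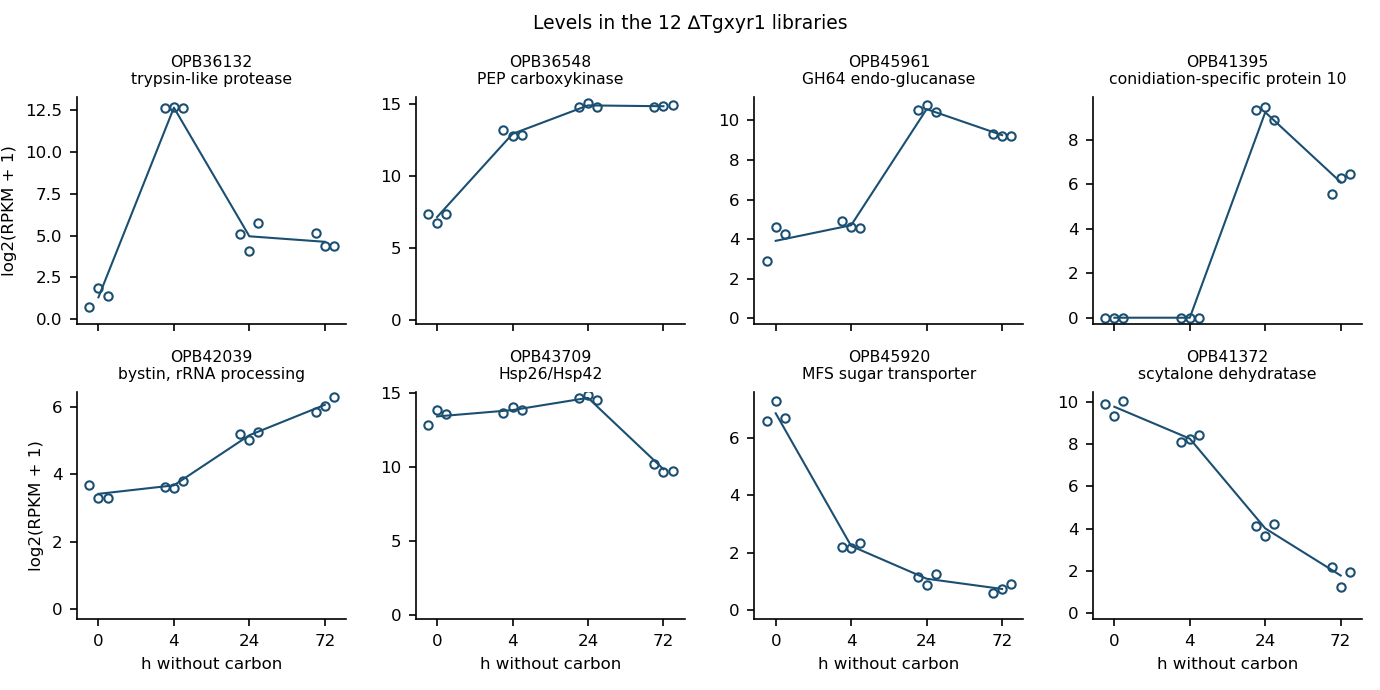
Levels of 8 genes as log2(RPKM + 1) in each of the 12 ∆Tgxyr1 libraries (circles) with the mean of the 3 libraries of a time (line), times at equal distances and each panel with its own vertical scale. The trypsin-like protease peaks at 4 h, the GH64 glucanase rises and con-10 appears at 24 h, bystin is highest at 72 h, and Hsp26/Hsp42 is lowest at 72 h.

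Surface proteins moved in both directions. Of 94 hydrophobins and small secreted cysteine-rich proteins (SSCRP), 15 rose and 6 fell at 4 h, 20 rose and 8 fell at 24 h, and 14 rose and 17 fell at 72 h. Hydrophobins coat aerial hyphae and spores with a water-repellent film. HFB3 (OPB45549) had 2.11, 5.19 and 5.77 RPKM at 0 h, 100.3, 59.02 and 106 RPKM at 4 h, 1291, 1707 and 1313 RPKM at 24 h and 1658, 1555 and 1308 RPKM at 72 h. It climbed at each step to 24 h and then held, with a difference of 8.14 (SE 0.91, adjusted p = 4.3e-12) at 24 h. The hydrophobin OPB38530 followed it, with 67.9, 84.1 and 33.96 RPKM at 0 h, 447, 244 and 419.8 RPKM at 4 h, 4324, 4335 and 4370.1 RPKM at 24 h and 4823, 4011 and 3452 RPKM at 72 h. The SSCRP OPB44820 was among the largest rises at 72 h, 8.13, and the SSCRP OPB41156 fell, with -4.86 and -5.88 at 24 h and 72 h. The LysM protein OPB45519, of a family that binds chitin, fell late, with 562, 1601 and 1524 RPKM at 0 h, 2045, 2364 and 2056 RPKM at 4 h, 332, 405 and 360.2 RPKM at 24 h and 3.43, 2.59 and 2.78 RPKM at 72 h. Its 72 h difference was -8.15 (SE 0.86, adjusted p = 9.9e-13).

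Falls among genes of the proteasome, which degrades tagged proteins inside the cell, began at 24 h. Of 36 genes, 2 rose at 4 h and at 24 h, and 0 fell at 4 h, 10 at 24 h and 7 at 72 h, against 5.53% of all genes at 24 h, and the median difference was -0.09, -1.67 and -1.68. The 20S subunit β1 (OPB41411) had 117, 138 and 151 RPKM at 0 h, 61.4, 62.8 and 62.2 RPKM at 4 h, 18.3, 12.5 and 12.3 RPKM at 24 h and 32.7, 24.9 and 28.3 RPKM at 72 h. Its 24 h and 72 h libraries lay below all 4 h libraries, and these below all 0 h libraries. The subunit Pre5 (OPB37308) fell as well, with -2.59 at 24 h and -2.36 at 72 h. Rpn4 (OPB46578), which activates proteasome genes in yeast, ran against its list, with 1204, 1494 and 1596 RPKM at 0 h, 8208, 7812 and 7801 RPKM at 4 h, 13921, 18319 and 13484 RPKM at 24 h and 3056, 2445 and 2968 RPKM at 72 h. Its differences of 2.48 at 4 h and 3.41 at 24 h were 1.39 and 1.66 with quantile scaling, under the limit. Of 63 genes of autophagy and the vacuole, 3 rose at 4 h, 7 at 24 h and 2 at 72 h, against 6.97%, 10.3% and 7.84% of all genes. They included at all 3 times the vacuolar acid sphingomyelin phosphodiesterase OPB37257, with 5.67, 5.80 and 4.14.

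Heat shock proteins and chaperones held calls in both directions at 72 h. Of 51, 4 rose at 4 h and 10 at 24 h, and at 72 h 3 rose and 5 fell. Rises over all genes were 6.97%, 10.3% and 7.84% at these times, and falls 7.5% at 72 h. The shares of the list at 72 h were thus close to those of all genes. In the step from 24 h to 72 h, 12 of the 51 fell, where 5.75% of all genes did. The small heat shock protein Hsp26/Hsp42 OPB43709, which keeps unfolded proteins soluble, had 7189, 14803 and 12382 RPKM at 0 h, 12947, 16990.1 and 14635 RPKM at 4 h, 25916, 29402 and 23721 RPKM at 24 h and 1165, 809 and 829 RPKM at 72 h. All 24 h libraries lay above those of 0 h, and all 72 h libraries far below. FES1 (OPB40139), which recycles Hsp70, fell at 72 h, with -3.85. Hsp30 (OPB45522) rose by 4.15, 6.94 and 5.29, and the Hsp70 family chaperone OPB36237 rose by 2.33 and 3.52 at 24 h and 72 h. Among 68 antioxidant and redox genes, 5 rose and 1 fell at 4 h, 7 rose and 9 fell at 24 h, and 5 rose and 9 fell at 72 h. Over all genes, 6.97%, 10.3% and 7.84% rose and 3.11%, 5.53% and 7.5% fell, so the share of rises in the list was close to that of all genes at each time. A catalase (OPB40299), which breaks down hydrogen peroxide, had 1.18, 5.13 and 3.52 RPKM at 0 h, 46.8, 46.7 and 41.2 RPKM at 4 h, 243, 349.8 and 285 RPKM at 24 h and 466, 534 and 454 RPKM at 72 h, a climb at every time.

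Nearly all rises among ribosome biogenesis genes came after 4 h, and most of them late. Of 65 factors, 1 rose at 4 h, 8 at 24 h and 31 at 72 h, when 7.84% of all genes were higher, and none fell. The median of the list was 0.19, 1.23 and 1.97 at 4 h, 24 h and 72 h. By first call, 25 were late, 7 middle and 1 early, and 32 were not called at any time. Bystin (OPB42039), which is needed for the small ribosomal subunit, had 11.7, 8.78 and 8.76 RPKM at 0 h, 11.2, 10.99 and 12.996 RPKM at 4 h, 35.8, 31.1 and 37.2 RPKM at 24 h and 56.6, 64.04 and 77.7 RPKM at 72 h. Levels at 4 h matched those at 0 h, and each later time lay above the one before. RRP9 (OPB40176), a part of the machinery that processes pre-rRNA, differed by 1.45, 2.30 and 2.65, and a factor that stimulates RNA polymerase I (OPB45105) by 1.55, 2.32 and 2.80. UTP14 (OPB36314), of the same small subunit machinery, had 2.70 at 72 h, while its value at 24 h, 2.04, was 1.87 without 24 h replicate 3. No member of this list was called in the step from 24 h to 72 h. The ribosomal proteins of the cytosol moved less, with 91 genes at medians of 0.38, 0.47 and 1.05 and 3 called higher at 72 h.

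Other late rises were scattered over functions. DNA photolyase (OPB37792), which repairs ultraviolet damage with light, had 1.74, 2.87 and 2.24 RPKM at 0 h, 1.97, 1.86 and 3.23 RPKM at 4 h, 7.03, 9.76 and 7.03 RPKM at 24 h and 57.7, 65.2 and 67.9 RPKM at 72 h. The GH15 gene OPB36488, of a family of glucoamylases, had 22.03, 15.02 and 23.1 RPKM at 0 h, 20.1, 27.9 and 18.4 RPKM at 4 h, 48.1, 41.7 and 62.3 RPKM at 24 h and 285, 324 and 359 RPKM at 72 h. Both were flat at 4 h, slightly higher at 24 h and well apart at 72 h. The dienelactone hydrolase OPB45871 rose by 4.17, and the cytochrome P450 OPB36836 by 3.44. Late falls included aspartyl-tRNA synthetase OPB43798, which had 2281, 3154 and 2338 RPKM at 0 h, 7249.6, 6257 and 6905 RPKM at 4 h, 5389.96, 7347 and 5112 RPKM at 24 h and 163, 91.1 and 98.7 RPKM at 72 h. A second gene with the same annotation, OPB38048, was higher at all 3 times, with 3.42, 3.59 and 2.60. The acid phosphatase OPB37683, which frees phosphate from esters, differed by -5.74 at 72 h, ERG25 (OPB38209) of ergosterol synthesis by -4.06, and the PDR-type ABC transporter OPB40926 by -5.03.

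Several of the largest early falls, those given first here, stayed low at all 3 times. The MFS sugar transporter OPB45920 had 94.01, 152 and 102 RPKM at 0 h, 3.58, 3.50 and 4.07 RPKM at 4 h, 1.23, 0.834 and 1.42 RPKM at 24 h and 0.503, 0.668 and 0.879 RPKM at 72 h. The 0 h libraries lay far above every CS library. The O-methyltransferase OPB40672 had 760.4, 384 and 838 RPKM at 0 h, 14.8, 23.3 and 14.1 RPKM at 4 h, 0.383, 0 and 0.495 RPKM at 24 h and 0.399, 0.0927 and 0 RPKM at 72 h, with a difference of -8.94 (SE 1.05, adjusted p = 2.8e-11) at 24 h. Isoamyl alcohol oxidase (OPB46145) differed by -5.02, -8.65 and -9.27 and the short-chain oxidoreductase OPB44497 by -5.47, -8.81 and -8.80. The hydroxysteroid dehydrogenase OPB39104 came partly back, with 19.9, 72.3 and 85.7 RPKM at 0 h, 0.371, 0.704 and 0.307 RPKM at 4 h, 1.49, 0 and 0.947 RPKM at 24 h and 7.63, 8.16 and 7.20 RPKM at 72 h. It was called higher at 72 h than at 24 h, by 2.35, and its remaining fall from 0 h, -2.56, was not called without 0 h replicate 2 (adjusted p = 0.0105) or 3 (adjusted p = 0.0149) or with a pseudocount of 0.1 (adjusted p = 0.0274). The polyketide synthase PKSX1 (OPB45495), which builds the carbon skeleton of a secondary metabolite, had 2.67, 2.82 and 2.09 RPKM at 4 h, against 53.8, 86.7 and 111 RPKM at 0 h, and 0.217, 0.232 and 0.455 RPKM at 24 h. Scytalone dehydratase (OPB41372), an enzyme of melanin synthesis, fell more slowly, with 973, 653 and 1065 RPKM at 0 h, 279, 302 and 344 RPKM at 4 h, 16.6, 11.6 and 17.6 RPKM at 24 h and 3.48, 1.31 and 2.83 RPKM at 72 h. It passed the limit first at 24 h, as did the polyketide synthase OPB41371, with -1.27, -3.69 and -4.20.

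Some nutrient and stress genes rose early without belonging to these groups. The catechol dioxygenase OPB44593, which opens aromatic rings, rose by 9.23, 6.86 and 5.18, and the alcohol oxidase AOX1 (OPB41235) by 7.44, 8.29 and 8.10. The glucose permease HXT1 (OPB44909) had 120.2, 51.3 and 39.6 RPKM at 0 h, 7654, 8664 and 7621 RPKM at 4 h, 13596, 18901 and 13752 RPKM at 24 h and 616, 406 and 412 RPKM at 72 h. It was high at 4 h and 24 h and fell back by 72 h, where the remaining rise of 2.89 was not called without 0 h replicate 3 (2.56, adjusted p = 0.0126). The aryl-alcohol oxidase OPB40911 was a middle gene with 1.05, 6.12 and 7.42.

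Among regulators of carbon use, TgCLR-2 rose early and TgACE2 was not called. TgCLR-2 (OPB38568), a Zn2Cys6 factor known for cellulase control in Neurospora crassa, had 2.34, 3.50 and 3.07 RPKM at 0 h, 31.6, 30.3 and 31.1 RPKM at 4 h, 26.2, 31.6 and 32.7 RPKM at 24 h and 7.07, 5.87 and 6.27 RPKM at 72 h. The difference was 3.02 (SE 0.38, adjusted p = 3.6e-10) at 4 h, and at 72 h it was 0.91, under the limit. TgACE2 (OPB44681), a regulator of cellulase genes, had differences of 0.31, -0.18 and -1.01. The bZIP factor MeaB (OPB43059), which takes part in nitrogen control in Aspergillus nidulans, had 223, 169.5 and 194 RPKM at 0 h, 4232, 3551 and 3843 RPKM at 4 h, 1858, 2348 and 2337 RPKM at 24 h and 358, 302 and 288 RPKM at 72 h. It peaked at 4 h and at 72 h was close to its 0 h level. Among 224 Zn2Cys6 regulators, 7 rose and 3 fell at 4 h, 15 rose and 3 fell at 24 h, and 16 rose and 8 fell at 72 h, in each case a smaller share than over all genes. The Zn2Cys6 gene OPB37369 rose most, by 4.54, 6.30 and 4.81. Of 48 C2H2 regulators 5, 8 and 6 rose at 4 h, 24 h and 72 h, led by OPB39429 with 2.91, 4.42 and 4.86, and 1 fell, OPB44956, with -3.47 at 72 h. Of 44 G protein-coupled receptors and G proteins, 5 rose and 1 fell at 4 h, 8 rose and 2 fell at 24 h, and 10 rose and 6 fell at 72 h, against rises of 6.97%, 10.3% and 7.84% and falls of 3.11%, 5.53% and 7.5% of all genes. They included the late PTH11-type receptor OPB38677 with 3.05 at 72 h.

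Many of the moving genes have no known function. Of the 689 early rises, 272 were annotated only as hypothetical or left blank, as were 267 of the 541 middle and 108 of the 242 late rises. OPB40410 rose most at 4 h, with 6379, 6037 and 7671 RPKM, against 0, 2.23 and 0 RPKM at 0 h. OPB43683 represents the middle, with 0.37, 7.32 and 7.28, and OPB38605 the late rises, with 1.37, 1.64 and 4.96. The most abundant transcript under CS, OPB42634, chosen after its values were seen, had 6706, 8385 and 8154 RPKM at 0 h, 90124, 120391 and 95020.4 RPKM at 4 h, 216642, 257939 and 181956 RPKM at 24 h and 62225, 47629 and 48599 RPKM at 72 h and gave 8.31% of the RPKM sum at 24 h. Actin (OPB40140), a gene every cell uses, had -0.17, -1.43 and -1.08 and was not called.

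The 12 genes called in both directions had all risen first and fallen by 72 h. Besides glucokinase they included the N-acetylglucosamine-phosphate mutase OPB43662, of chitin precursor synthesis, with 2.28, -0.04 and -3.42, and the oligopeptide transporter OPB45922 with 2.12, -0.91 and -3.67, both chosen after their values were seen. Of the rest, 5 were annotated only as hypothetical.

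The course in ∆Tgxyr1 was set against that in WT by an interaction term, the difference of the log2 change from 0 h between the strains. At 4 h, 270 genes changed more upward in ∆Tgxyr1 than in WT (2.69%) and 80 more downward (0.798%). At 24 h these were 814 (8.12%) and 212 (2.11%), and at 72 h 700 (6.98%) and 355 (3.54%). The count of upward genes at 4 h was 161 without WT CS 4 h replicate 1 and 166 without replicate 2. The median SE of the term was 0.41 at 4 h, 0.38 at 24 h and 0.41 at 72 h.

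Both hydrophobins described above differed between the strains. HFB3 (OPB45549) had 1291, 1707 and 1313 RPKM in ∆Tgxyr1, against 187, 225 and 169 RPKM in WT, at 24 h. At 0 h it had 2.11, 5.19 and 5.77 RPKM in ∆Tgxyr1, against 135, 185 and 237 RPKM in WT. The order of the strains was thus opposite at 0 h and 24 h, and the interaction was 8.05 (SE 1.28, adjusted p = 7.0e-07) at 24 h. The hydrophobin OPB38530 had 4823, 4011 and 3452 RPKM in ∆Tgxyr1, against 138 and 111 RPKM in WT, at 72 h, and 67.9, 84.1 and 33.96 RPKM in ∆Tgxyr1, against 1836, 2560.3 and 3024 RPKM in WT, at 0 h. Its interaction at 72 h was 10.38 (SE 1.58, adjusted p = 2.3e-07). For both genes, the term therefore holds a difference on glucose as well as under CS.

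In carbon metabolism, several genes ended far higher in ∆Tgxyr1 than in WT. Glyceraldehyde-3-phosphate dehydrogenase 1 (OPB42895) had 879, 683 and 917 RPKM in ∆Tgxyr1, against 0.172 and 0.0573 RPKM in WT, at 72 h. At 0 h the strains were closer, with 6877, 5093 and 4240.4 RPKM in ∆Tgxyr1 and 3065, 3081 and 2291 RPKM in WT, and the interaction was 8.60 (SE 1.31, adjusted p = 2.4e-07). A CoA transferase (OPB44998), which moves coenzyme A between acids, had 202, 379 and 552 RPKM in ∆Tgxyr1, against 0.498 and 0.472 RPKM in WT, at 72 h, with an interaction of 8.44 (SE 1.07, adjusted p = 1.9e-09). Phosphoenolpyruvate carboxykinase (OPB36548) kept 28062, 29124 and 30685 RPKM in ∆Tgxyr1, against 1382 and 1408 RPKM in WT, at 72 h, and its interaction there was 5.31 (SE 0.76, adjusted p = 4.8e-08). Mitochondrial D-lactate dehydrogenase (OPB43638), which turns lactate into pyruvate, had 91.8, 279.9 and 541 RPKM in ∆Tgxyr1, against 2.72 and 1.86 RPKM in WT, at 72 h, with an interaction of 8.84 (SE 1.06, adjusted p = 4.7e-10). Of the 20 glycolysis genes, 9 had a higher response in ∆Tgxyr1 at 24 h and 8 at 72 h, and 1 a lower one at 72 h. The 6 genes of the glyoxylate cycle and gluconeogenesis gave 1 at 72 h. Cytosolic ribosomal proteins also differed, with 24 of 91 higher at 72 h, where 6.98% of all genes were, and a median interaction of 1.73. Of the 65 ribosome biogenesis factors 1 was called higher at 72 h, but their median interaction of 1.11 also lay above that of all genes, -0.13. No gene of the 15 in the xylan-degrading list passed the limits for this term at any time. Over all genes, 2.69%, 8.12% and 6.98% had a higher response at 4 h, 24 h and 72 h. Some members, such as the GH10 xylanase XYN3 (OPB40690) and the GH30 gene OPB40699, averaged below 2 RPKM in both strains throughout. They could therefore not be called. Of the 10 cellulases, 1 had a higher response in ∆Tgxyr1 at each time.

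**Figure D4:**
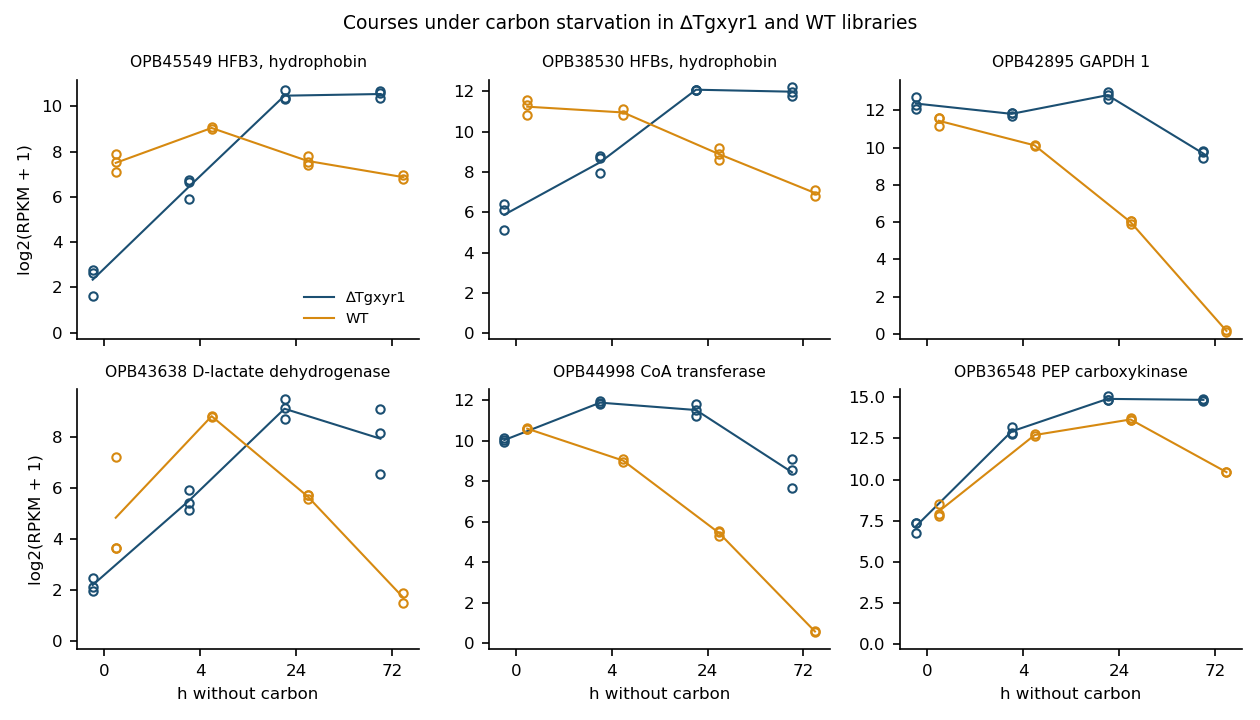
Levels of 6 genes as log2(RPKM + 1) in each library of ∆Tgxyr1 (blue, left of each time) and WT (orange, right), with lines through the means, times at equal distances and each panel with its own vertical scale. HFB3 and the hydrophobin OPB38530 start lower in ∆Tgxyr1 and end higher, and glyceraldehyde-3-phosphate dehydrogenase 1 and the CoA transferase fall to the floor in WT alone.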

How the data were processed

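Polyadenylated RNA of mycelium was sequenced as paired reads. The deposited RPKM values were made by the authors, who used FASTX-Toolkit as a quality filter, TopHat2 with Bowtie2 as the aligner to the strain's own genome, and Cufflinks with Cuffnorm for the gene values. Tool versions, the annotation release and the scaling option of Cuffnorm are not given in the sources used here. The text of the study's methods calls the same values FPKM. Of the genes, 14 carry no annotation. The depth of each library is unknown, and the number of libraries limits the precision.

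Groups were taken from the labels. With limma 3.58.1 in R 4.3.3, a model with a mean for each of the 34 groups (100 libraries, 66 residual degrees of freedom) was fitted to log2(RPKM + 1), with the trend option of the empirical Bayes step. A gene was early, middle or late by its first call against 0 h. The test was checked on simulated data.

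The labels and the methods do not say that a replicate number marks a shared culture, and the main model held no replicate block. The gene lists were set from words of the deposited annotation or from IDs in the study, and lists are described by counts and medians without a test. Members and lists were chosen with earlier results of these data known. Patterns of 4 lists (TCA cycle, glycolysis, glyoxylate cycle and gluconeogenesis, G protein-coupled receptors) were narrowed after values were seen, since they took in other genes. Named genes are those the study names by ID. Among annotated genes whose libraries do not overlap, they include the largest rises and falls of each comparison, class and step. The largest interactions in each direction were taken from called annotated genes without that condition. Also named are up to 4 called members of each list, all members of a few lists and genes every cell uses. The largest hypothetical rises of each class were added, and any other gene is named as chosen after its values were seen. Promoter motifs and TgACE1 were not analysed here. Other settings tried were pseudocounts of 0.1 and 2, no filter or a filter on the 12 libraries, median-of-ratios or quantile scaling, an unadjusted p, array weights, a fit of only the libraries compared, a replicate block and leaving out each library. Summaries used Python 3.11.15 with pandas 2.3.3 and numpy 2.4.6, and figures matplotlib 3.10.9.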

Additional observations from a re-analysis of the deposited data

Results flagged for a closer look

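Responses to CS that differed between ∆Tgxyr1 and WT by the interaction term are listed here, by the rule for named genes. The counts of genes with a higher and a lower response in ∆Tgxyr1 were 270 and 80 at 4 h, 814 and 212 at 24 h, and 700 and 355 at 72 h. All single values below are interaction terms on the log2 scale, and each passed the limits given above. A higher response in ∆Tgxyr1 can be a larger rise or a smaller fall than in WT. Each term also holds any difference between the strains at 0 h. No explanation was tested.

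At 4 h the response was higher in ∆Tgxyr1 for the rhamnogalacturonase RGX1 (OPB46541, 4.95), the secreted protein OPB43142 (4.71), phosphatidylserine decarboxylase (OPB37696, 4.63), the H/K ATPase OPB36158 (4.45) and the GH3 gene OPB41188 (4.39). It was lower for the SSCRP OPB44820 (-5.64), the bZIP factor OPB39979 (-4.25), the FAD-binding protein OPB37932 (-4.18), OPB44394, annotated for formaldehyde (-4.03), and the GH24 lysozyme OPB46444 (-3.97). The call of OPB46541 was lost without either WT CS 4 h library (adjusted p = 0.0139 and 0.016), and that of OPB44820 without WT CS 4 h replicate 1 (adjusted p = 0.0102). OPB44820 had 4.81, 7.46 and 7.36 RPKM in ∆Tgxyr1, against 386 and 344 RPKM in WT, at 4 h. The call of OPB39979 was lost with a pseudocount of 0.1 (-5.17, adjusted p = 0.0136). OPB37696 was lower at 4 h than at 0 h in both strains. Its mean went from 796 to 200 RPKM in ∆Tgxyr1 and from 2385 to 24.9 RPKM in WT. OPB36158 and OPB41188 were not called in ∆Tgxyr1 at any time. At 0 h OPB36158 had 0.297, 0.450 and 0.458 RPKM in ∆Tgxyr1, against 42.01, 37.6 and 31.9 RPKM in WT, and OPB41188 had 0.724, 0.131 and 0.387 RPKM in ∆Tgxyr1, against 26.7, 25.2 and 29.3 RPKM in WT.

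At 24 h the hydrophobins OPB38530 (8.56) and HFB3 (OPB45549, 8.05), the glucose permease HXT1 (OPB44909, 7.39), the Zn2Cys6 regulator OPB37365 (7.09) and the amino acid transporter OPB42564 (7.04) had higher responses in ∆Tgxyr1. HXT1 had 13596, 18901 and 13752 RPKM in ∆Tgxyr1, against 947, 909.9 and 936 RPKM in WT, at 24 h, and OPB42564 had 241, 393 and 180.3 RPKM in ∆Tgxyr1, against 10.5, 12.8 and 10.8 RPKM in WT. At that time OPB42564 was not called against 0 h in ∆Tgxyr1. OPB37365 had a mean of 51.7 RPKM in ∆Tgxyr1, against 1.81 RPKM in WT, at 24 h. At 0 h its mean was 4.00 RPKM in ∆Tgxyr1, against 37.1 RPKM in WT. Lower responses were those of the heat shock factor binding protein OPB40085 (-6.08), aspartate aminotransferase (OPB40673, -4.84), OPB39979 (-3.85), the chloroperoxidase OPB44911 (-3.80) and fumarylacetoacetate hydrolase OPB43756 (-3.74). OPB40085 was listed at 0 in all 3 ∆Tgxyr1 libraries at 24 h, so the size of its term depends on the pseudocount.

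At 72 h the higher responses were those of OPB38530 (10.38), HFB3 (OPB45549, 8.84), D-lactate dehydrogenase (OPB43638, 8.84), glyceraldehyde-3-phosphate dehydrogenase 1 (OPB42895, 8.60) and the CoA transferase OPB44998 (8.44). The lower ones were those of the subtilisin SUB9 (OPB41391, -4.75), aspartate aminotransferase (OPB40673, -4.63), the short-chain dehydrogenase OPB46141 (-4.42), threonine/serine dehydratase (OPB40059, -4.38) and salicylate hydroxylase (OPB45602, -4.17). The last of these lost its call without 0 h replicate 2 of ∆Tgxyr1 (-3.85, adjusted p = 0.0104) or either WT CS 72 h library (adjusted p = 0.0175 and 0.0113). OPB46141 lost its call without WT 0 h replicate 3 (-3.88, adjusted p = 0.0113) or either WT CS 72 h library (adjusted p = 0.0106 and 0.0126). SUB9 had 0.846, 1.49 and 0.957 RPKM in ∆Tgxyr1, against 61.1 and 57.1 RPKM in WT, at 72 h. At 0 h it was listed at 0 in all 3 ∆Tgxyr1 libraries, against 0.109, 0 and 0.119 RPKM in WT, so the size of its term depends on the pseudocount. OPB40673 had 0.180, 0.251 and 0.183 RPKM in ∆Tgxyr1, against 0.0897 and 0.0902 RPKM in WT, at 72 h, and 0, 0.263 and 0.223 RPKM in ∆Tgxyr1, against 0.107, 0.355 and 0.172 RPKM in WT, at 24 h. It was thus near 0 in both strains at 24 h and 72 h, and the strains were apart at 0 h, with 259, 80.6 and 186 RPKM in ∆Tgxyr1, against 7.40, 6.03 and 2.28 RPKM in WT. Its call at 72 h was lost with a pseudocount of 0.1 (-4.37, adjusted p = 0.019).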

How the results depend on the processing

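Of 501 called values of named genes, none reversed its direction, 430 kept their call under all of them and 71 lost it under at least 1, most often with quantile scaling (34) and a pseudocount of 2 (21). Counts of calls moved by over 1.5 times in these cases. With a pseudocount of 0.1, genes higher at 72 h than at 24 h were 133 (69 in the model described), middle falls 501 (323) and lower responses than WT at 24 h 348 (212). With a pseudocount of 2 they were 36 for the step to 72 h, and lower responses than WT were 53 at 4 h (80) and 139 at 24 h. With quantile scaling, 378 genes fell between 24 h and 72 h (576), 4 were called in both directions (12) and 176 had a higher response than WT at 4 h (270). That last count was 421 when only the libraries compared were fitted and 466 with array weights, which gave 161 lower responses. The cause was not tested. Leaving out 1 library at a time gave 675 to 709 rises and 294 to 342 falls at 4 h, 997 to 1063 and 538 to 598 at 24 h, and 767 to 790 and 713 to 796 at 72 h. Without 0 h replicate 1, falls at 72 h (796) outnumbered rises (790). It gave 161 to 282 higher and 54 to 110 lower responses than WT at 4 h, 752 to 829 and 178 to 245 at 24 h, and 613 to 718 and 301 to 386 at 72 h.

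Replicate numbers gave no sign of a pairing. Over 18 pairs of libraries with the same number, deviations correlated at -0.131 to 0.116, against -0.097 to 0.147 for pairs with different numbers. Such values cannot show whether cultures were shared. With the replicate block the counts were 699 and 311 at 4 h, 1036 and 553 at 24 h, and 785 and 752 at 72 h. The table holds no read counts, which limits what can be said of low values, and a value of 0 may be a failed estimate.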

Other observations

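Several groups outside those described above changed little or in both directions. Of 105 genes of protein folding in the endoplasmic reticulum and vesicle transport, 0 rose and 3 fell at 4 h, 1 rose and 6 fell at 24 h, and 0 rose and 2 fell at 72 h, with medians of -0.41, -0.80 and -0.53. Of 42 genes of DNA replication and histones, 1 was called higher at 4 h and 1 lower at 24 h. Of 76 genes of cell division and the cytoskeleton, 3 rose at 4 h, among them an α-tubulin (OPB39279) with 2.41, 0.11 and -0.68 and cyclin-dependent kinase 1 (OPB36517) with 2.53, 1.75 and 0.90. Of 41 genes of wall synthesis, 2 rose and 2 fell at 24 h, and chitin synthase 4 (OPB39446) was among the rises, with 2.36. Of 19 ergosterol genes, 1 rose and 1 fell at 72 h.

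Transport out of the cell and secondary metabolism gave single large changes. Of 40 ABC transporters, 7 rose and 1 fell at 4 h, 8 rose and 1 fell at 24 h, and 2 rose and 3 fell at 72 h. The PDR-type transporter OPB38902, of a family of drug pumps, differed by 3.99, 6.15 and 3.91. Of 50 cytochromes P450, 6 rose at 4 h, led by OPB39587 with 4.59, 2.19 and 0.62. Of 25 polyketide, peptide and terpene synthases, 1 rose and 3 fell at 24 h, and the siderophore synthase OPB40613, which makes an iron carrier, had 1.55, 3.67 and 1.98. Of 70 tRNA synthetases and translation factors, 2 rose and 4 fell at 4 h, and elongation factor 1 beta (OPB41882) fell at all 3 times, with -2.55, -4.37 and -5.08. Of 58 ubiquitin genes, the F-box protein SCON-2 (OPB39041), which takes part in sulfur control in Neurospora crassa, had 2.38, 3.39 and 1.44.

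Of 22 genes in the list of sugar transporters, 2 rose and 1 fell at 4 h, and at 72 h 2 rose and 3 fell. Over all genes, 6.97% rose and 3.11% fell at 4 h, and 7.84% rose and 7.5% fell at 72 h. The list does not hold the glucose permease HXT1 (OPB44909) described above. The monosaccharide transporter OPB37372 had 2.23, 5.08 and 3.46. Of 9 genes of pentose use, 3, 4 and 2 rose at 4 h, 24 h and 72 h, and L-arabinitol 4-dehydrogenase (OPB44279), a step of arabinose use, had 1.47, 2.87 and 2.99. Of 18 bZIP regulators, 2, 4 and 1 rose at these times.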
